A study of Mus musculus with 5 samples.

Results

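Genes of the transforming growth factor beta (TGF-beta) system were examined in hearts of calcineurin transgenic mice given JIB-04 or vehicle. The 10 genes were taken by name from the deposited tables, out of 19061 gene rows, and all 10 were found. They are the ligand genes Tgfb1, Tgfb2 and Tgfb3, the receptor genes Tgfbr1, Tgfbr2 and Tgfbr3, and the latent binder genes Ltbp1, Ltbp2, Ltbp3 and Ltbp4. The JIB-04 group had 3 libraries, from C57BL/6 mice dosed at 50 mg/kg, 3 times each week from 4 weeks of age. The vehicle group had 2 libraries from mice of the same strain and genotype on the same schedule. All hearts were collected on postnatal day 158. JIB-04 is a small molecule that inhibits Jumonji histone demethylases, and the comparison asks what long dosing did to the transcriptome of a heart in severe hypertrophy. Every mouse carried the activated calcineurin transgene, which the alpha myosin heavy chain promoter drives in heart muscle cells, so the vehicle hearts are hypertrophic hearts and not healthy ones. Whole hearts were used, and the labels do not say whether each library came from a separate animal, so p-values measure only the spread between these libraries, which may be technical.

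TGF-beta is made as a precursor whose propeptide stays wrapped around the mature growth factor and keeps it latent. Latent TGF-beta binding proteins (LTBPs) tie this latent complex to fibrillin microfibrils and fibronectin in the matrix, and integrins, thrombospondin and proteases release the active ligand. Active ligand brings the type II receptor, encoded by Tgfbr2, together with the type I receptor, encoded by Tgfbr1, which phosphorylates SMAD2 and SMAD3. In the injured or overloaded heart the pathway is best known for turning fibroblasts into matrix-producing myofibroblasts.

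None of the 10 genes passed the test between JIB-04 and vehicle hearts. All 3 JIB-04 values of Tgfbr2 were above both vehicle values, and all 3 of Tgfbr3 were below both. The groups overlapped for the other 8 genes, Tgfbr1 among them. Groups did not overlap for 22.8% of all 14414 genes tested, so 2 of 10 is near the background. Ltbp2 had the widest spread, 4.02-fold between its highest and lowest library, both of which were JIB-04 libraries.

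The depth was 33629722, 35650602 and 34782448 recovered reads in JIB-04 libraries and 37002846 and 32152168 in vehicle libraries. The 10 genes had between 828 and 39510 reads each in a library. Ppp3ca, which encodes calcineurin A, was at 4341 to 7275 CPM in JIB-04 and 6082 and 8022 CPM in vehicle libraries. With no library from a mouse without the transgene, this level cannot check the transgene. Cardiomyocyte genes were abundant in every library, as the tissue label implies, with 14 markers summing to 106674 to 138158 CPM in JIB-04 and to 124269 and 140343 CPM in vehicle hearts. Values are deposited CPM, reads scaled by library size and, as far as the values show, a normalisation factor. Differences between groups are on the log2(CPM + 1) scale, JIB-04 minus vehicle, so 1 unit is a doubling of CPM + 1.

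Promoter sequences are shown for Tgfbr2, whose groups did not overlap, and for Ltbp2, whose libraries spread most. Both run from 250 bases before to 50 bases after the start site on the minus strand, from RefSeq on GRCm38.p6, the assembly that mm10 displays. Tgfbr2 lies at chr9:116175314-116175613 and Ltbp2 at chr12:84876442-84876741. Capitals mark CAGAC, the core of the element that SMAD3 and SMAD4 bind, and GGGCGG, the GC box bound by Sp1, on either strand.
Tgfbr2: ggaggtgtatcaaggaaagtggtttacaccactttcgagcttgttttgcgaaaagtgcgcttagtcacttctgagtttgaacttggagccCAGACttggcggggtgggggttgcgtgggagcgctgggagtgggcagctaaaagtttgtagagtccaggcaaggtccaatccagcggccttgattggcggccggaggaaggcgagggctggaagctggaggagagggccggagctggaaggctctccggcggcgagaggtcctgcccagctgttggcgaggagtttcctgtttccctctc
Ltbp2: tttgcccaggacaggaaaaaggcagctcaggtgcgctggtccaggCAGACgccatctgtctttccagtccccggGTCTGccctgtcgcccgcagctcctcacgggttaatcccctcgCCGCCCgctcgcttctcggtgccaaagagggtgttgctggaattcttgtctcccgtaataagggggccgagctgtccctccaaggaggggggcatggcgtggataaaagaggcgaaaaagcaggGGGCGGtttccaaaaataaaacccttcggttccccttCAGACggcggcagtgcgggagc
The Tgfbr2 window held 1 CAGAC and no GGGCGG, and the Ltbp2 window held 3 and 2. CAGAC is present in 49.6% and GGGCGG in 35.7% of 32851 promoter windows of this length, so a match is common and is a description, not a binding site. The longer SMAD palindrome GTCTAGAC, held by 0.213% of windows, and the AP-1 site TGANTCA, held by 7.81%, were in neither window. RefSeq promoter windows were matched for 8 of the 10 genes. None was matched for Tgfb3 or for Tgfbr3, whose groups also did not overlap and whose promoter is therefore not shown.

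**Figure D1:**
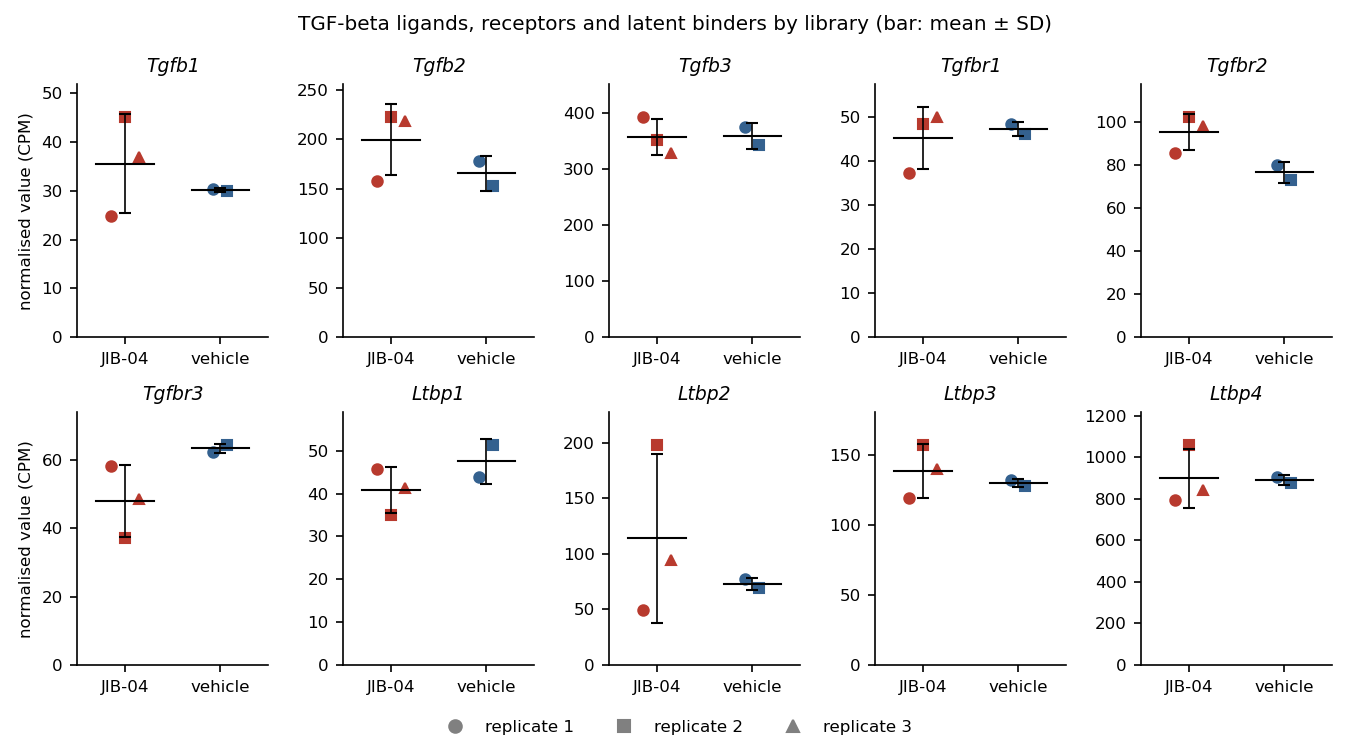
Normalised value (CPM, each vertical axis from 0) of each gene in the 3 JIB-04 libraries (red) and the 2 vehicle libraries (blue), with marker shape giving the replicate number and black lines the mean ± SD. Points of both groups interleave for 8 genes, whereas all JIB-04 points sit above both vehicle points for Tgfbr2 and below both for Tgfbr3.

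Per kilobase of exon, the order of the 10 genes was led by a latent binder and a pair of ligands. Lengths are the union of GENCODE M21 exons on GRCm38, which takes all annotated isoforms together. Lengths of single transcripts were not tried, so the order of the genes, and the shares given further on, hold for these lengths only. Ltbp4 stood at 139 ± 15.5 CPM per kb over the 5 libraries (SD), Tgfb3 at 106 ± 7.47 and Tgfb2 at 32.1 ± 5.62 CPM per kb. These 3 levels did not overlap between libraries, and Tgfb2 was above Ltbp3, at 14.9 ± 1.61 CPM per kb, in all 5 libraries.

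Below Ltbp3 the order was less certain. Ltbp2 averaged 11.9 ± 7.13 CPM per kb and Tgfbr2 10.7 ± 1.47 CPM per kb, yet Ltbp2 was above Tgfbr2 in 1 of 5 libraries, JIB-04 replicate 2. Tgfbr3, Tgfbr1 and Tgfb1 averaged 8.28 ± 1.73, 7.04 ± 0.786 and 6.62 ± 1.54 CPM per kb, with overlapping ranges between neighbours. Ltbp1 was lowest, at 4.07 ± 0.554 CPM per kb, and below Tgfb1 in all 5 libraries.

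**Figure D2:**
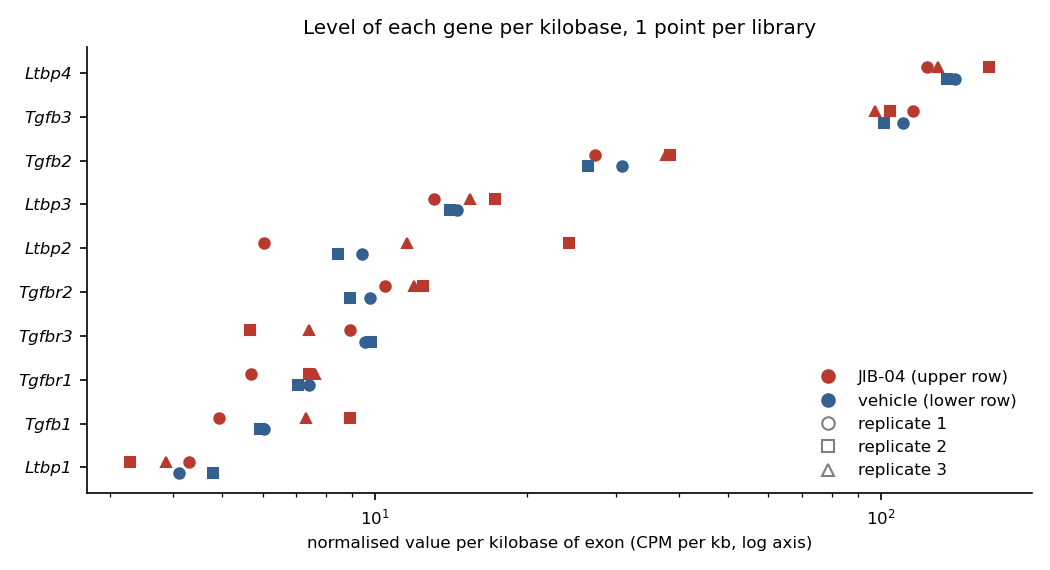
Level of each gene per kilobase of exon (CPM per kb, log axis), ordered by the mean over 5 libraries, with JIB-04 libraries in red above vehicle libraries in blue and marker shape giving the replicate. Ltbp4, Tgfb3 and Tgfb2 form separate steps at the top, and Ltbp2 spans from 6.02 to 24.2 CPM per kb.

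Among the ligands, Tgfb3 made up most of the transcript level in both groups and Tgfb1 least. By CPM per kb, Tgfb3 held 78.3%, 68.8% and 68.4% of the ligand level in JIB-04 libraries and 75.1% and 75.8% in vehicle libraries. Tgfb2 held 18.4%, 25.3% and 26.5% in JIB-04 and 20.8% and 19.8% in vehicle libraries. Tgfb1 held 3.32% to 5.90% in JIB-04 and 4.09% and 4.42% in vehicle libraries. JIB-04 replicates 2 and 3 thus had a larger Tgfb2 share than both vehicle libraries, and JIB-04 replicate 1 a smaller one.

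Tgfb1 encodes the isoform most tied to fibrosis and immune regulation (chromosome 7, 25687001 to 25704996, mm10). It had 24.8, 45.0 and 36.8 CPM in JIB-04 libraries, against 30.4 and 29.9 CPM in vehicle libraries. The vehicle values were close to each other and lay inside the JIB-04 range. The difference, JIB-04 minus vehicle, was 0.19 ± 0.22 log2 units (SE, limma adjusted p = 0.883). Leaving out JIB-04 replicate 2 gave 0.00 and leaving out JIB-04 replicate 1 gave 0.42, so the size of the value rested on which JIB-04 library was counted.

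Macrophages and platelets are known sources of Tgfb1, and their markers were set beside it. Of 21 macrophage and monocyte markers, 19 had positive values, with a median log2 fold change of 0.60, and 0 passed limma's threshold while 13 were higher at an unadjusted p under 0.05, where 3.93% of all genes tested were. The median was 0.37 without vehicle replicate 2. Their summed level was 410, 561 and 649 CPM in JIB-04 libraries and 418 and 303 CPM in vehicle libraries. The 10 platelet markers summed to 11.4, 20.3 and 21.5 CPM in JIB-04 and to 16.9 and 12.6 CPM in vehicle libraries. Among the platelet markers Pf4 was at 6.09 to 11.9 CPM in JIB-04 and 8.06 and 5.50 CPM in vehicle libraries, while Gp6 was at 0 in JIB-04 replicate 1 and under 0.1 CPM elsewhere. The sums of both lists and Tgfb1 were lower in JIB-04 replicate 1 than in JIB-04 replicates 2 and 3. Single markers did not all follow, as Ccr2 had 9.84, 7.53 and 20.6 CPM and Ly6c2 0.81, 0.509 and 0.426 CPM in JIB-04 libraries. Between the vehicle libraries the macrophage sum went from 418 to 303 CPM, while Tgfb1 was at 30.4 and 29.9 CPM. No marker of either list was at 0 in every library, and the part of these cells in the Tgfb1 values was not tested. In whole tissue, fewer cells of a type and less RNA per cell cannot be told apart.

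Tgfb2 encodes the ligand that needs the co-receptor betaglycan for high-affinity binding (chromosome 1, 186623185 to 186705992). It had 158, 222 and 218 CPM in JIB-04 libraries, against 178 and 153 CPM in vehicle libraries. JIB-04 replicates 2 and 3 were above both vehicle libraries and JIB-04 replicate 1 lay between them. For Tgfb2 the difference was 0.25 ± 0.16 log2 units (SE, limma adjusted p = 0.825) and ran from 0.15 to 0.41 with 1 library left out.

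Tgfb3, the most abundant ligand transcript, differed least of the 3 ligand genes (chromosome 12, 86056742 to 86079041). It had 392, 352 and 329 CPM in JIB-04 libraries, against 375 and 343 CPM in vehicle libraries. Its difference of -0.01 ± 0.09 log2 units (SE) was 0.05 when values were scaled to plain library totals. The 95% interval of -0.23 to 0.22 bounds it at a fold of 0.851 to 1.16. The 3' end of Tgfb3 overlaps Ttll5 on the opposite strand, and whether the authors counted by strand is not given in the sources used here.

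The receptor genes encode the signalling pair and betaglycan, a proteoglycan co-receptor that presents ligand to the type II receptor and, when shed, can hold ligand away from it. Tgfbr2 (chromosome 9, 116087694 to 116175363) had 85.7, 102 and 98.1 CPM in JIB-04 libraries, against 80.1 and 73.1 CPM in vehicle libraries. All 3 JIB-04 libraries were above both vehicle libraries. Tgfbr2 differed by 0.31 ± 0.09 log2 units (SE), with a 95% interval of 0.09 to 0.52, a fold of 1.24 on the log2(CPM + 1) scale. The unadjusted p was 0.0120 and the limma p adjusted over all 14414 genes tested was 0.675. By an exact permutation test of the difference over the 10 ways to split the libraries, two-sided p = 0.2, where 0.1 is the smallest possible.

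Tgfbr3, which encodes betaglycan (chromosome 5, 107106569 to 107289595), had 58.3, 37.1 and 48.5 CPM in JIB-04 libraries, against 62.5 and 64.4 CPM in vehicle libraries. All 3 JIB-04 libraries were below both vehicle libraries, with JIB-04 replicate 2 lowest and JIB-04 replicate 1 nearest to vehicle. Tgfbr3 differed by -0.42 ± 0.17 log2 units (SE), with a 95% interval of -0.83 to -0.01. The unadjusted p was 0.0447 and the limma adjusted p was 0.763, and the exact permutation test gave p = 0.2. Leaving out JIB-04 replicate 2 gave -0.25 and leaving out JIB-04 replicate 1 gave -0.57.

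Tgfbr1, the type I receptor kinase gene (chromosome 4, 47353304 to 47414924), had 37.1, 48.4 and 49.8 CPM in JIB-04 libraries, against 48.4 and 46.1 CPM in vehicle libraries. JIB-04 replicate 1 was below the rest, and the others lay together. Tgfbr1 differed by -0.08 ± 0.13 log2 units (SE, limma adjusted p = 0.919), and the difference was 0.06 without JIB-04 replicate 1.

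Split by direction, 10.7% of all genes tested had all 3 JIB-04 values above both vehicle values and 12% had all 3 below. The same genes, Tgfbr2 and Tgfbr3, had groups that did not overlap when values were rescaled to plain library totals.

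Ratios within a library do not depend on the scaling between libraries, and they were looked at after the values were seen, so they carry no test. Per kilobase, Tgfbr2 over Tgfbr1 was 1.84, 1.68 and 1.57 in JIB-04 libraries and 1.32 and 1.27 in vehicle libraries. Tgfbr3 over Tgfbr2 was 0.852, 0.456 and 0.619 in JIB-04 libraries and 0.977 and 1.10 in vehicle libraries. For both of these ratios the groups did not overlap, and how many gene pairs do so was not computed. For Tgfbr3 over Tgfbr2 this follows from the 2 genes themselves, as Tgfbr2 lay above and Tgfbr3 below vehicle in every JIB-04 library. In the other 2 ratios computed the groups overlapped. Tgfb2 over Tgfb3 was 0.235, 0.368 and 0.387 in JIB-04 and 0.277 and 0.261 in vehicle libraries. Ltbp2 over Ltbp4 was 0.0489, 0.148 and 0.0892 in JIB-04 and 0.0671 and 0.0626 in vehicle libraries. Tgfbr2 held 41.8%, 48.7% and 44.3% of the level of the 3 receptor genes in JIB-04 libraries and 36.6% and 34.6% in vehicle libraries. This share draws on the same Tgfbr2 and Tgfbr3 values and is not a separate result.

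**Figure D3:**
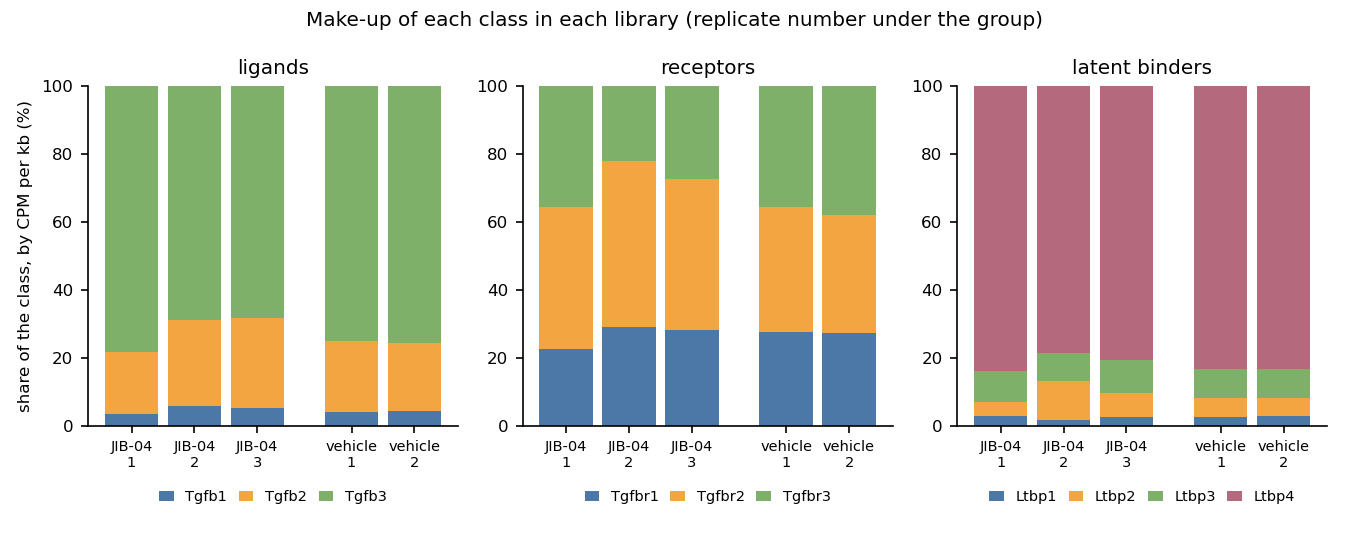
Share (%) of each gene in the summed CPM per kb of its class, as stacked bars for the 3 JIB-04 libraries and then the 2 vehicle libraries. Tgfb3 and Ltbp4 fill most of the ligand and latent binder bars in every library, and the Tgfbr2 segment is larger in each JIB-04 bar than in both vehicle bars.

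Markers of the cells that carry these receptors were compared with them. The 14 fibroblast markers summed to 3591, 3860 and 4001 CPM in JIB-04 libraries and 3606 and 3508 CPM in vehicle libraries, with a median log2 fold change of 0.19 and 12 of 14 values positive. The 14 endothelial markers summed to 1201, 1610 and 1451 CPM in JIB-04 and 1369 and 1443 CPM in vehicle libraries, with a median of -0.01. The 14 cardiomyocyte markers had a median of -0.16, with 13 negative values, and their sum was lowest in JIB-04 replicate 2, the library with the lowest Tgfbr3, although Myh6, Ryr2, Atp2a2 and Mybpc3 were lowest in JIB-04 replicate 3. The 13 smooth muscle and pericyte markers had a median of -0.06. No gene of these 4 lists passed limma's threshold. At an unadjusted p under 0.05 there were 1 higher and 1 lower among fibroblast markers and 0 in the others. Over all genes tested the shares were 3.93% and 2.51%. All 3 JIB-04 values were below both vehicle values in 4 cardiomyocyte, 1 fibroblast, 1 smooth muscle and pericyte and 0 endothelial markers. They were above both in 2 fibroblast markers and in 0 of the others. Of all genes tested, 12% were below both and 10.7% above. The part of cell make-up in the receptor values was not tested.

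The latent binder genes were dominated by Ltbp4, with 84.0%, 78.5% and 80.8% of the summed level per kb in JIB-04 libraries and 83.3% and 83.2% in vehicle libraries. LTBP-1 and LTBP-3 bind the latent complexes of all TGF-beta isoforms, LTBP-4 binds that of Tgfb1 weakly, and LTBP-2 binds none and is known as a matrix protein of microfibrils. None of the 4 genes had groups without overlap.

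Ltbp2 (chromosome 12, 84783211 to 84876495) had 49.3, 198 and 94.9 CPM in JIB-04 libraries, against 77.1 and 69.3 CPM in vehicle libraries. JIB-04 replicate 2 was far above the rest, JIB-04 replicate 3 was somewhat above vehicle, and JIB-04 replicate 1 was the lowest of all. The range over the 5 libraries was 1.98 on the log2 scale, wider than in 99.8% of the genes tested, whose median range was 0.28. Ltbp2 differed by 0.41 ± 0.50 log2 units (SE), with a 95% interval of -0.78 to 1.60 (limma adjusted p = 0.885). Leaving out JIB-04 replicate 2 gave -0.09, and leaving out JIB-04 replicate 1 gave 0.90 (limma adjusted p = 0.205), so a single library set the sign. Its 5' exon also overlaps the antisense gene D030025P21Rik.

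Among 12835 other genes with a mean of at least 1 CPM, 3 had the profiles nearest to that of Ltbp2, by Euclidean distance between centred log2(CPM + 1) profiles over 5 libraries. Krt18, a keratin of simple epithelia, lay at a distance of 0.29, Col12a1, a collagen chain that coats fibrils, at 0.31, and Gdf6, a bone morphogenetic protein family ligand, at 0.40. The median distance over all of these genes was 1.51. Col12a1 had 9.33, 30.4 and 18.0 CPM in JIB-04 libraries, against 12.3 and 11.8 CPM in vehicle libraries. Gdf6 had 3.54, 16.0 and 7.96 CPM in JIB-04 libraries, against 4.57 and 6.28 CPM in vehicle libraries. All 3 were highest in JIB-04 replicate 2 and lowest in JIB-04 replicate 1, as Ltbp2 was. That likeness is what they were picked for and is not a separate result.

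Ltbp4 (chromosome 7, 27305140 to 27337612) had 796, 1058 and 840 CPM in JIB-04 libraries, against 907 and 874 CPM in vehicle libraries. The vehicle values lay inside the JIB-04 range. Ltbp4 differed by 0.00 ± 0.14 log2 units (SE), with a 95% interval of -0.32 to 0.33. Ltbp3 (chromosome 19, 5740903 to 5758532) had 119, 157 and 140 CPM in JIB-04 libraries, against 132 and 128 CPM in vehicle libraries. Its difference was 0.08 ± 0.12 log2 units (SE).

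Ltbp1 (chromosome 17, 75005528 to 75392967) had 45.8, 35.1 and 41.4 CPM in JIB-04 libraries, against 43.8 and 51.3 CPM in vehicle libraries. JIB-04 replicates 2 and 3 were below both vehicle libraries. Ltbp1 differed by -0.22 ± 0.12 log2 units (SE, limma adjusted p = 0.821), and the value ran from -0.33 to -0.11 with 1 library left out. Of the latent binder genes it was the only gene with a negative value. Ltbp1 and Tgfbr3 were 2 of the 10 genes that were lowest in JIB-04 replicate 2, beside 29.5% of all genes tested.

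**Figure D4:**
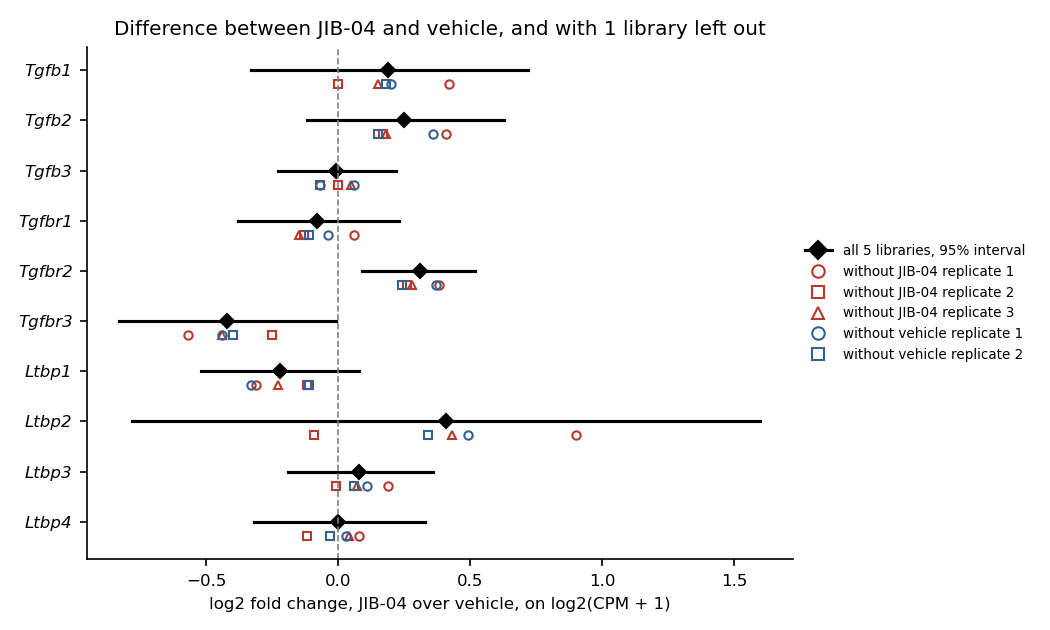
Log2 fold change of each gene, JIB-04 over vehicle, on log2(CPM + 1). Diamonds and bars give the fit to all 5 libraries with its 95% interval, and open symbols the fit with 1 library left out (red for JIB-04, blue for vehicle). The Tgfbr2, Tgfbr3, Tgfb2 and Ltbp1 symbols stay on their side of 0, and those of Ltbp2 move between -0.09 and 0.90.

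JIB-04 replicate 2 was the highest library for 6 of the 10 genes, against 24.2% of all genes tested, and JIB-04 replicate 1 the lowest for 5, against 19.6% of all genes tested. With each gene centred on its vehicle libraries (log2 scale), JIB-04 replicate 1 had a median over the 10 genes of -0.12, JIB-04 replicate 2 one of 0.26 and JIB-04 replicate 3 one of 0.09, against 0.03 and -0.03 in the vehicle libraries.

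Across all genes tested, limma called 0 (0%) at an adjusted p under 0.05, with a smallest adjusted p of 0.316, and 928 (6.44%) had an unadjusted p under 0.05, 3.93% of genes higher and 2.51% lower. Among the 10 genes limma called 0, with 2 at an unadjusted p under 0.05, 1 higher (Tgfbr2) and 1 lower (Tgfbr3). On recovered reads, edgeR's quasi-likelihood test called 0 of the 10, with 1 at an unadjusted p under 0.05, where 6.56% of all genes were. The voom variant of limma called 0 of the 10, with 2 at an unadjusted p under 0.05 beside 6.05% of all genes. DESeq2 called 0 of the 10 beside 84 (0.594%) of all genes, with 2 at an unadjusted p under 0.05 beside 5.58% of all genes. Without JIB-04 replicate 1, limma called 0 of the 10 beside 29 (0.201%) of all genes. The smallest DESeq2 adjusted p among the 10 was 0.331, for Tgfbr2. Of the 10 values 6 were positive and 4 negative, and their median was 0.04 log2 units, beside -0.01 over all genes tested.

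Integrins, proteases, thrombospondin and the cell-surface anchors act on latent ligand. Of 21 genes for latent TGF-beta activation, 0 passed the threshold, 17 had positive values and the median log2 fold change was 0.11. The list median was -0.03 in JIB-04 replicate 1, 0.20 in JIB-04 replicate 2 and 0.26 in JIB-04 replicate 3, with genes centred on the vehicle libraries. At an unadjusted p under 0.05, 4 were higher and 1 lower, where 3.93% of all genes tested were higher and 2.51% lower. In 7 of the 21 all 3 JIB-04 values were above both vehicle values, beside 10.7% of all genes tested. In 1 all 3 were below, beside 12%. Thbs1, which encodes the activator thrombospondin-1, had 21.8, 67.8 and 50.5 CPM in JIB-04 libraries, against 21.7 and 18.1 CPM in vehicle libraries. JIB-04 replicate 1 barely differed from vehicle replicate 1. JIB-04 minus vehicle was 1.05 ± 0.42 log2 units (SE, limma adjusted p = 0.755), and 1.52 without JIB-04 replicate 1, where it passed the threshold (limma adjusted p = 0.0314).

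Mmp14, a membrane metalloproteinase, had 19.4, 33.2 and 29.0 CPM in JIB-04 libraries, against 19.2 and 16.8 CPM in vehicle libraries. Plau, which encodes urokinase, had 3.15, 5.09 and 3.38 CPM in JIB-04 and 2.55 and 2.31 CPM in vehicle libraries. The genes of the cell-surface anchors differed less. Nrros, the anchor of latent ligand on macrophages and microglia, had 7.02, 7.74 and 9.04 CPM in JIB-04 libraries and 6.69 and 5.67 CPM in vehicle libraries, with a log2 fold change of 0.31. Lrrc32, the anchor on regulatory T cells and platelets, had 14.6, 24.5 and 27.4 CPM in JIB-04 libraries, against 14.8 and 20.0 CPM in vehicle libraries, with overlapping groups.

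The matrix proteins that hold latent complexes had mixed values. Of 18 genes, 0 passed the threshold, 13 had positive values and the median was 0.12. All JIB-04 values were above both vehicle values in 3 and below both in 2, beside 10.7% and 12% of all genes tested. Fbn1, the fibrillin to which LTBPs attach, had 124, 287 and 171 CPM in JIB-04 libraries, against 155 and 118 CPM in vehicle libraries. Fbln1, a fibulin, had 203, 189 and 251 CPM in JIB-04 and 185 and 145 CPM in vehicle libraries. Fmod, the ligand-binding proteoglycan fibromodulin, had 11.8, 23.2 and 12.6 CPM in JIB-04 and 9.11 and 9.77 CPM in vehicle libraries. Aspn, the related proteoglycan asporin, had the opposite sign, with 254, 176 and 244 CPM in JIB-04 libraries and 273 and 298 CPM in vehicle libraries (log2 fold change -0.36).

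The co-receptors and other type I and type II receptors of the family were close to the background. Of 13 tested of 16 listed co-receptor and receptor genes, 0 passed the threshold, 7 were positive and 6 negative, and the median was 0.04. Vasn, a membrane protein that traps TGF-beta, had 34.5, 34.4 and 37.6 CPM in JIB-04 libraries, against 42.9 and 40.9 CPM in vehicle libraries. Bambi, a decoy receptor without a kinase domain, had 75.0, 59.2 and 79.3 CPM in JIB-04 and 79.8 and 85.9 CPM in vehicle libraries. In both genes all 3 JIB-04 values were below both vehicle values. Of the 13 tested genes, 0 lay above both vehicle values in this way and 2 below, beside 10.7% and 12% of all genes tested. Acvr1, a type I receptor for bone morphogenetic proteins and activins, had 23.2, 32.3 and 30.1 CPM in JIB-04 libraries, against 23.0 and 26.3 CPM in vehicle libraries. Eng, the endothelial co-receptor endoglin, had 241, 351 and 359 CPM in JIB-04 libraries, against 306 and 329 CPM in vehicle libraries.

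The transducers downstream of the receptors differed little. Of 26 genes, 0 passed the threshold, 13 were positive and 13 negative, and the median was 0.00. Smad2 had 36.7, 36.0 and 37.1 CPM in JIB-04 libraries, against 32.9 and 31.0 CPM in vehicle libraries, a difference of 0.19 ± 0.07 log2 units (SE, limma adjusted p = 0.748). Smad3 had 22.1, 21.2 and 22.5 CPM in JIB-04 libraries, against 19.3 and 19.4 CPM in vehicle libraries, a difference of 0.17 ± 0.07 log2 units (SE). These are the SMADs that the type I receptor activates, and in both genes all 3 JIB-04 values were above both vehicle values. Of the 26 genes 3 lay above both vehicle values in this way and 2 below, beside 10.7% and 12% of all genes tested. Smad7, the inhibitory SMAD that the pathway itself induces, had 34.1, 48.5 and 50.8 CPM in JIB-04 libraries, against 48.8 and 50.1 CPM in vehicle libraries. Tgfb1i1, a focal adhesion protein also called Hic-5, had 27.9, 39.6 and 36.5 CPM in JIB-04 libraries, against 30.3 and 27.8 CPM in vehicle libraries.

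Genes known to respond to TGF-beta in fibroblasts spread widely between JIB-04 libraries. Of 31 genes, Ltbp2 included, 0 passed the threshold, 26 had positive values and the median log2 fold change was 0.17. Centred on the vehicle libraries, the list median was -0.20, 0.58 and 0.34 in JIB-04 replicates 1, 2 and 3, and 0.11 and -0.11 in vehicle libraries. At an unadjusted p under 0.05, 4 were higher and 0 lower, beside 3.93% and 2.51% of all genes tested. All JIB-04 values were above both vehicle values in 3 and below both in 1, beside 10.7% and 12% of all genes tested. The list was not independent of earlier results on these libraries, in which matrix genes had been described.

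Comp, a matrix protein of cartilage and scar, had 156, 308 and 245 CPM in JIB-04 libraries, against 140 and 96.3 CPM in vehicle libraries. All 3 JIB-04 libraries were above both vehicle libraries, and JIB-04 minus vehicle was 0.96 ± 0.29 log2 units (SE, limma adjusted p = 0.679). Ctgf, connective tissue growth factor, had 867, 1169 and 1333 CPM in JIB-04 libraries, against 1160 and 1288 CPM in vehicle libraries.

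Postn, the activated fibroblast protein periostin, had 189, 520 and 300 CPM in JIB-04 libraries, against 304 and 274 CPM in vehicle libraries. Like Ltbp2, it was lowest in JIB-04 replicate 1 and highest in JIB-04 replicate 2. Tgfbi had 45.2, 43.6 and 69.9 CPM in JIB-04 libraries, against 42.4 and 43.2 CPM in vehicle libraries, so its value was carried by JIB-04 replicate 3. For the collagen chains the difference was 0.41 for Col1a1 and 0.59 for Col3a1 on the log2 scale, and the groups overlapped in each. Without vehicle replicate 2 the values were 0.24 and 0.35, and Col1a1 was at 0.25 without JIB-04 replicate 2. Acta2, smooth muscle actin, had 1518, 908 and 1560 CPM in JIB-04 libraries and 1443 and 1045 CPM in vehicle libraries.

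Other secreted ligands and antagonists of the family had a median of 0.05, with 0 of 19 tested past the threshold of 26 listed. Mstn, which encodes the growth inhibitor myostatin, had 1.02, 1.66 and 2.50 CPM in JIB-04 libraries, against 3.01 and 3.45 CPM in vehicle libraries, a difference of -0.67 ± 0.23 log2 units (SE, limma adjusted p = 0.748). Inhba, the activin A subunit, had 3.42, 5.12 and 6.28 CPM in JIB-04 libraries, against 3.31 and 2.38 CPM in vehicle libraries, a log2 fold change of 0.61. Gdf10 had 2.49, 1.69 and 1.93 CPM in JIB-04 libraries, against 2.77 and 2.64 CPM in vehicle libraries. None of the 3 genes had overlapping groups, though each lay at a few CPM, where the log2(CPM + 1) scale understates a change. They were named for the smallest p of their list. Of the 19 tested, 1 had all JIB-04 values above both vehicle values and 3 had all below. Over all genes tested the shares were 10.7% and 12%.

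**Figure D5:**
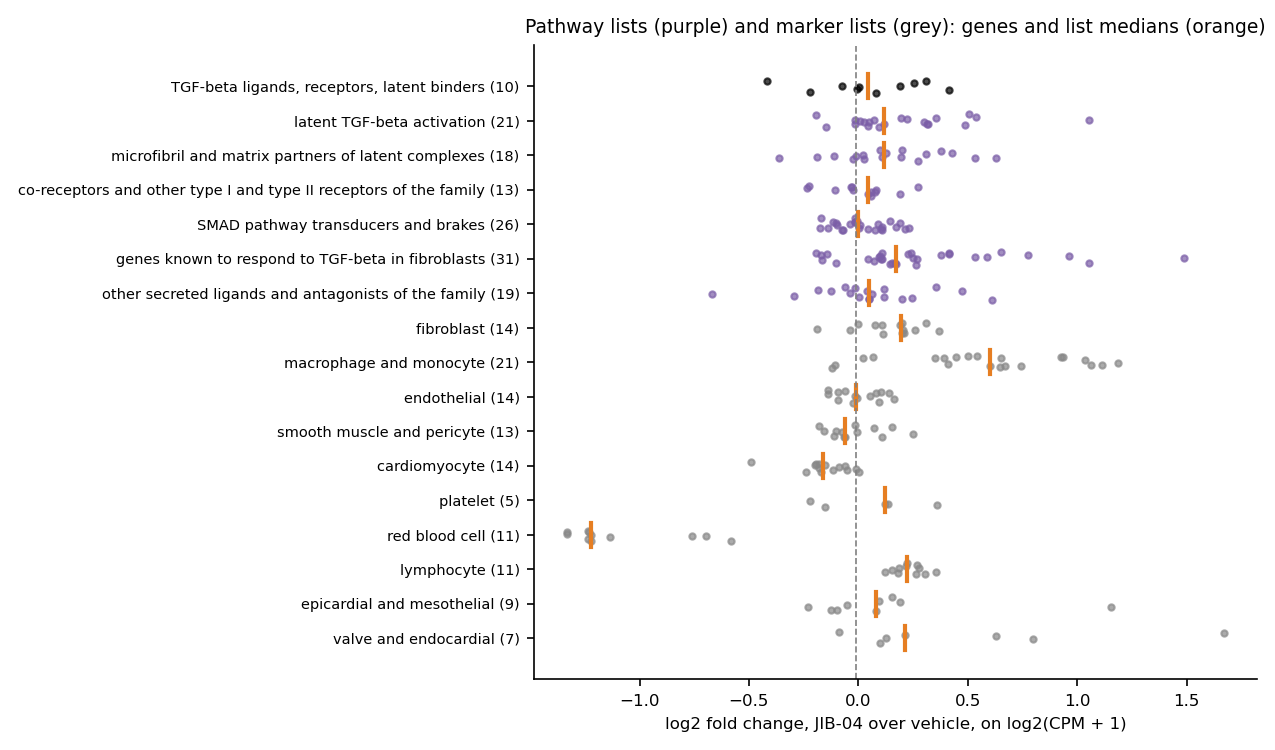
Log2 fold change, JIB-04 over vehicle, on log2(CPM + 1), of every tested gene in the TGF-beta set (black), the pathway lists (purple) and the marker lists (grey), with list medians in orange, the number of genes in brackets and a dashed line at the median of all genes, -0.01. The TGF-beta genes straddle 0 with a median of 0.04, whereas the macrophage markers centre on 0.60 and the red blood cell markers on -1.22.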

How the data were processed

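Heart RNA was extracted with Trizol and made into stranded mRNA libraries, per the labels' protocols. The submitters' processing notes list, with build mm10 and no role or order, edgeR, featureCounts, Subread, TopHat2 2.0.12, Picard 1.127 and FastQC 0.11.2. The deposited files hold 1 normalised signal per gene and library, headed CPM. The authors' scaling appears to include a normalisation factor besides depth, since columns summed to 954981 to 1046902, not to the same total, and every value (100%) was a whole multiple, within 0.01, of the value of 1 read. Whole reads were recovered from these steps, and edgeR's count test on them called 0 genes. Counting floors (3 reads) were 0.0804 to 0.0977 CPM.

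Of 19061 gene rows (1 further row was blank and left out), edgeR's filterByExpr kept 14414. The difference was tested with limma (3.58.1, R 4.3.3) with a mean-variance trend on log2(CPM + 1), adjusted by Benjamini-Hochberg over all genes kept, at 0.05. Fold changes on this scale are understated at low values. edgeR (4.0.16), limma-voom and DESeq2 (1.42.0) on recovered reads, scalings, pseudocounts, filters, a replicate block and leaving out each library were alternatives. The fits were tested on simulated data. No 2 libraries of a group agreed within sampling noise (chi-square per degree of freedom 11.8 to 55.8). No batch is given in the labels.

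The 10 genes and all lists were chosen with earlier results of these data known. Besides the 10 genes, the text names up to 3 genes with the smallest p and a mean of at least 1 CPM from each pathway list, a set of genes fixed by name (of which 1 is not reported here), and the 3 genes nearest to any of the 10 whose range reached 1 on the log2 scale. Lists are described by counts and medians, with no set test.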

Additional observations from a re-analysis of the deposited data

How the results depend on the processing

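The count of 0 among the 10 genes held under all 15 alternatives. Over all genes DESeq2 called 84, and leaving out 1 library gave 0 to 29, with 29 without JIB-04 replicate 1. Tgfbr2, Tgfbr3, Tgfb2 and Ltbp1 kept their sign in every fit, and Tgfb1 was at 0.00 without JIB-04 replicate 2. The sign of Tgfb3, at -0.01, turned to 0.05 with plain library totals, 0.01 with edgeR and limma-voom and 0.05 with the replicate block, and lay between -0.07 and 0.06 with 1 library left out. With 1 library left out the values ran from -0.15 to 0.06 for Tgfbr1, -0.09 to 0.90 for Ltbp2, -0.01 to 0.19 for Ltbp3, -0.12 to 0.08 for Ltbp4, -0.28 to 0.03 for Ctgf, -0.28 to 0.45 for Postn, -0.16 to 0.33 for Acta2 and -0.12 to 0.16 for Eng. Eng was at 0.03 with plain library totals and 0.01 with edgeR and DESeq2, and Acta2 at -0.06 with the replicate block. The cause of these changes was not tested. The labels do not say that a replicate number marks a shared animal or batch, and same-numbered libraries deviated from their group means with a correlation of -0.13. A fit with the replicate block called 0 genes. No vehicle library shares the number of JIB-04 replicate 3, so this fit gave the same differences as leaving that library out. For Tgfbr2 both gave 0.28, so the block is not a separate alternative for the size of a difference. With 2 vehicle libraries, the fits without a vehicle library assume that the remaining one varies like the JIB-04 group.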
